A study of Drosophila melanogaster with 2 samples.

Results

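The peaks described here are the sites of a tagged CG11696 protein that lay in first introns. CG11696 is a fly protein predicted to contain zinc fingers, a fold that often contacts DNA. Its sites were mapped by chromatin immunoprecipitation and sequencing (ChIP-seq), in which fragments of DNA bound by a protein are pulled down with an antibody and sequenced. All samples belonged to 1 group: whole embryos of strain CG11696-GFP, aged 0 to 24 h, carrying a CG11696-eGFP fusion that was precipitated with an antibody against GFP. There were 2 biological replicates and no contrasting genotype or treatment. The labels give neither the sex of the embryos nor the promoter of the transgene, and whole embryos of this age range mix all cell types and stages. A peak was kept when its summit, the position of highest signal, lay more than 500 bp from every annotated transcription start site (TSS), in no exon, and inside the first intron of at least 1 protein-coding transcript. The authors' conservative list holds peaks that passed a limit on the irreproducible discovery rate, a measure of how poorly paired peak sets agree in rank. Of its 2897 peaks after overlaps were merged, 839 met this rule (29.0%, 95% Wilson interval 27.3 to 30.6). Another 364 lay in later introns, 1185 within 500 bp of a TSS (promoter peaks), 391 between genes and 103 in exons, and 15 lay in introns of noncoding transcripts alone.

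An intron is transcribed with its gene and removed from the RNA by splicing. The first intron is the one nearest the start of transcription. In flies, first introns are often the longest of a gene and are known to hold enhancers, short stretches of DNA that carry binding sites for transcription factors and control when and where the gene is expressed. Many zinc finger proteins bind DNA through such sites.

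The sequences at the strongest first-intron peaks are shown because they carry stretches made of A and T alone. Each run below reaches 50 bp to either side of a summit and is read 5′ to 3′ on the plus strand of the Release 6 assembly (dm6) from the RefSeq copy of the genome. Capitals mark unbroken runs of A and T of at least 6 bp. The windows are chif at chr2L:16351159-16351259, Dok at chrX:7324960-7325060, CG13894 at chr3L:696887-696987, ph-p at chrX:2137314-2137414 and shep at chr3L:5187105-5187205.
chif: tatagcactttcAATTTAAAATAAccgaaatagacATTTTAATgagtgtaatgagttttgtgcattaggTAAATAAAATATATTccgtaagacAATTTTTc
Dok: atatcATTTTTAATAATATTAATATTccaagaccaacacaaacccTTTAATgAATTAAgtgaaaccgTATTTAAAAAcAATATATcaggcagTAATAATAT
CG13894: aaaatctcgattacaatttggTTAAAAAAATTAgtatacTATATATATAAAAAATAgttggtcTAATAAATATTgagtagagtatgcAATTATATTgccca
ph-p: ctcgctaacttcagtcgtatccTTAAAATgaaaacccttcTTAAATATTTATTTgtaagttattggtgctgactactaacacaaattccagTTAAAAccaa
shep: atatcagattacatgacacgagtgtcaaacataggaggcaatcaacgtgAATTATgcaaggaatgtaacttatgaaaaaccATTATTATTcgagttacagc
The Dok window held 6 such runs, the longest of 21 bp, and the chif window held 4, the longest of 15 bp. The shep window held 2 short runs, and its GC content of 34.7% was that of the mean member. Over all members the median longest run was 10 bp at the summit and 8 bp in windows centred 300 bp to either side. Runs of 6 bp are thus common in both.

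Signal values are the authors' measure of peak strength in the units of their peak caller. Replicate values come from each replicate's own ranked list and pooled values from the list made of both, and the scales of the lists differ. The strongest first-intron peak was in chif, which encodes the fly counterpart of Dbf4, the activator of a kinase that starts DNA replication, at chr2L:16351012-16351430. Its signal value was 927 in replicate 1 and 896 in replicate 2 (mean 911 ± 22.0, SD, n = 2). It lay 926 bp from the nearest TSS in an intron of 2454 bp, and its summit is also in the first intron of Hyls1. The second was in Dok, an adaptor protein of tyrosine kinase signalling, with 667 and 662 (665 ± 3.53, n = 2), in an intron of 863 bp. The gap between chif and Dok was far larger than the spread between replicates at either peak.

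The next strongest peaks were close together in strength. shep encodes an RNA-binding protein and had values of 514 and 487 in replicates 1 and 2 (501 ± 19.0, n = 2). CG13894 had 463 and 512 (487 ± 34.8, n = 2). ph-p, a Polycomb group gene whose product keeps developmental genes silent, had 444 and 466 (455 ± 15.7, n = 2). The replicate ranges of shep and CG13894 overlapped, as did those of CG13894 and ph-p, so their order is not resolved by these replicates.

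Hsp83, the fly Hsp90 chaperone, had signal values of 436 and 456. fra, the Netrin receptor of axon guidance, had 425 and 446. pyd, the fly orthologue of the junction protein ZO-1, had 387 and 460, and its replicates stood further apart. simj, a subunit of the NuRD chromatin remodelling complex, had 432 and 398. The peaks in Girdin, an actin-binding protein, Leash, CG32772 and CG9921 had replicate means from 355 to 396. The last of the 15 strongest were in neur, a ubiquitin ligase that acts on Notch ligands (292 and 404), and S, also called Star, which carries the EGF receptor ligand Spitz through the secretory pathway (286 and 403). At both, replicate 2 was clearly the higher, and their SDs of 78.7 and 82.7 were the largest among the 15. All 15 were in the thresholded lists of both replicates.

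**Figure D1:**
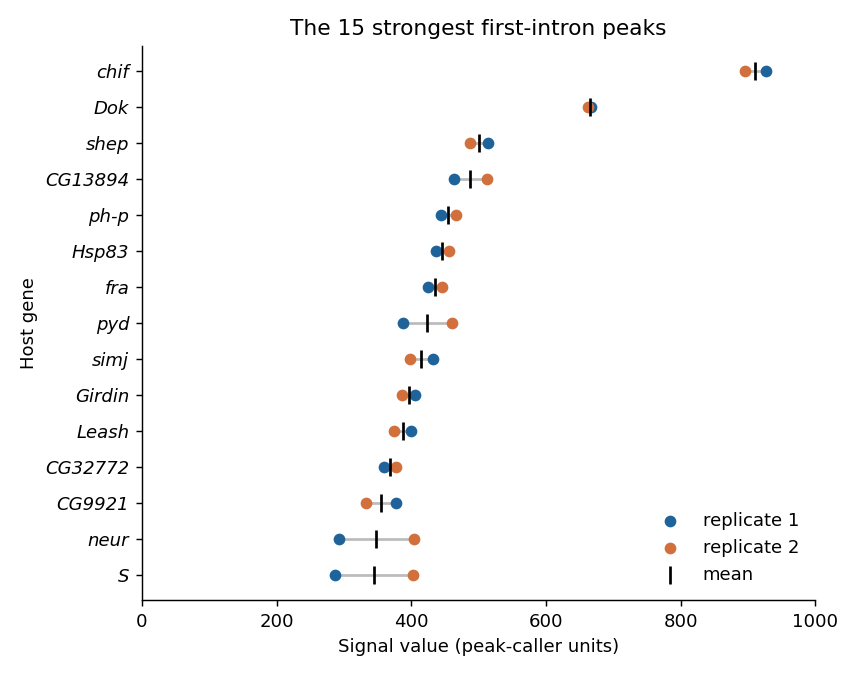
Signal value (linear axis, peak-caller units) of the 15 strongest first-intron peaks by host gene, with a dot for each of the 2 replicates and a bar for their mean. chif stands alone near 911, Dok follows at 665, and the other 13 lie between 344 and 501, with the widest gaps between replicates at neur and S.

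Over all 839 members the pooled signal value had a median of 115 and quartiles of 84.4 and 188, and it ran from 38.6 to 1848. Peak width was 344 bp in 615 members and ran from 86 to 578 bp. A replicate value could be read for 832 members in replicate 1 and 831 in replicate 2, and for 824 in both. The log2 ratio of replicate 2 to replicate 1 had a median of 0.08 and an SD of 0.40 over members. Spearman's rho between the replicates was 0.81 and Pearson's r on the log2 scale was 0.90, given as descriptions across peaks, which share their libraries and are not independent. The ratio exceeded 2-fold in 24 members (2.91%), with replicate 2 the higher in 19 and replicate 1 in 5. A CG3764 peak had 140 in replicate 1 and 283 in replicate 2, and the Stat92E peak had 89.8 and 42.9; both were chosen here after their values were seen.

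**Figure D2:**
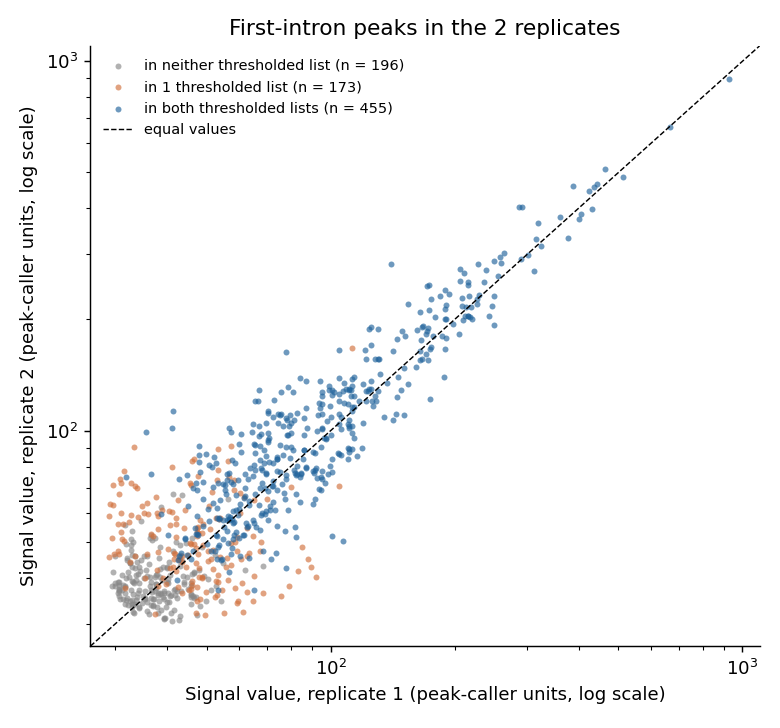
Signal value of each first-intron peak in replicate 1 (horizontal) and replicate 2 (vertical), both in peak-caller units on log axes, for the 824 members with a value in both. Colours show whether the member overlapped a peak in both, 1 or neither of the replicates' thresholded lists, and the strong peaks follow the line of equal values while members in neither list sit in the lower left corner.

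Membership of the conservative list did not require a peak in either replicate's own thresholded list. Of the members, 533 overlapped a peak of replicate 1's list by at least 1 bp (63.5%) and 557 one of replicate 2's (66.4%). Both lists held 457 members (54.5%, 95% Wilson interval 51.1 to 57.8), beside 52.5% of conservative peaks of all classes, and 206 (24.6%) were in neither. The share in both lists was 48.4% for later-intron peaks and 55.2% for promoter peaks. The difference from later introns was 6.1 percentage points (95% interval -0.0 to 12.2). It did not pass after adjustment over the main family of 20 tests (two-sided Fisher's exact p = 0.0517, adjusted p = 0.207). The difference from promoter peaks was -0.7 points (-5.1 to 3.7, Fisher's exact adjusted p = 0.836).

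Strength separated the members that both replicates listed from those that neither did. Members were divided into 5 equal classes by pooled signal value. In the weakest class, from 38.6 to 79.5, 2 of 168 members (1.19%) were in both lists. The shares in the next 3 classes were 14.3%, 62.3% and 95.2%. In the strongest class, from 216 to 1848, 167 of 168 were in both (99.4%). Strength and lists come from the same libraries, so this describes where the thresholds fell.

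First introns held a larger part of the called intron peaks than of the weaker ones. The background was the weaker peaks of the conservative ranked list, those that failed the threshold and touched no thresholded peak, called sub-threshold here. Of 1203 called peaks in introns of protein-coding transcripts 69.7% were in first introns, against 17513 of 35371 sub-threshold intron peaks (49.5%). The difference was 20.2 percentage points (95% interval 17.5 to 22.8, odds ratio 2.35, two-sided Fisher's exact adjusted p = 5.6e-43). The direction held in the thresholded list of each replicate alone, with 70.2% against 46.0% without replicate 1 and 71.4% against 53.1% without replicate 2. Peaks are not independent samples, so the p-value and the intervals cover the counting of peaks in these 2 replicates.

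The density of called peaks was 37.6 per Mb of eligible first-intron sequence (95% Poisson interval 35.1 to 40.3, 22.3 Mb) and 12 per Mb of later introns (10.8 to 13.3, 30.3 Mb). Eligible sequence is what lies over 500 bp from a TSS and in no exon. The density in first introns was lower at greater distance from the nearest TSS: 68.1 per Mb up to 1000 bp, 50 up to 2000 bp, 36.1 up to 5000 bp, 27.8 up to 10000 bp and 15.9 beyond. The matching densities in later introns were 31.1, 17.5, 15.3, 14.6 and 6.34 per Mb. Sub-threshold peaks in first introns were spread more evenly, from 842 per Mb in the nearest bin to 660 in the farthest.

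Distance to the TSS differs between first and later introns, so the comparison was repeated within the 5 distance bins, a division added after the data were seen. The share of first introns among called intron peaks exceeded that among sub-threshold peaks in all 5. The excess was 10.5 points in the nearest bin (82.8% against 72.3%, Fisher's exact p = 3.1e-04 adjusted over the 5 bins) and 16.9 points between 1000 and 2000 bp (adjusted Fisher's exact p = 2.0e-08). It was 16.3, 13.3 and 12.8 points in the 3 farther bins, with adjusted Fisher's exact p-values of 1.5e-08, 1.8e-04 and 0.00114.

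**Figure D3:**
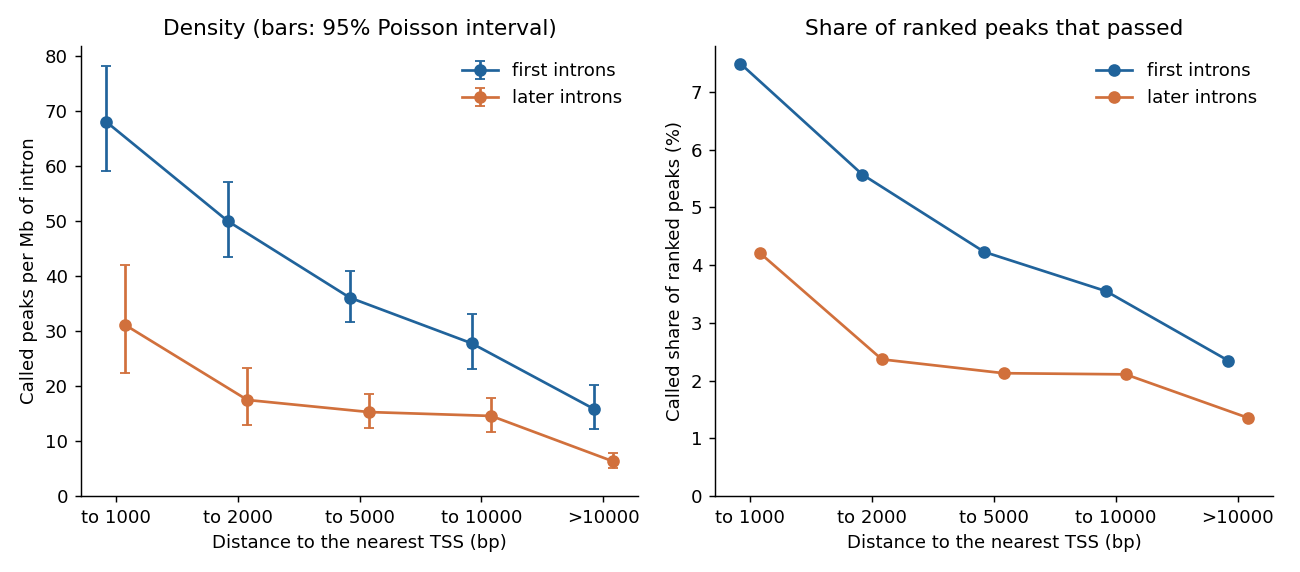
Left, called peaks per Mb of intron by distance to the nearest TSS (bp), with 95% Poisson intervals; right, the percentage of all ranked peaks in each bin that were called. First introns lie above later introns in every bin, from 68.1 against 31.1 per Mb nearest the TSS to 15.9 against 6.34 beyond 10000 bp.

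Within their introns the members sat towards the 5′ end. The median intron length was 9118 bp (quartiles 3731 and 18077, range 384 to 110416) and the median distance to the nearest TSS was 2026 bp (quartiles 1014 and 4750, maximum 41867). The first 50% of the intron's length held 58.5% of members and the first 25% held 32.4%, against 16.6% in the last 25%. Sub-threshold peaks in first introns divided nearly evenly, with 51.8%, 25.2% and 23.4% in the same stretches. The nearest TSS belonged to the host gene for 672 members (80.1%). For 330 members (39.3%) the site was also in a later intron of another transcript of the host, and 29 lay in first introns of more than 1 gene. Among peaks named below, the strongest in Mi-2, Hr3, Irk1 and Antp were shared in this way with Su(Tpl), CG12912, CG46310 and CG46458, respectively.

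The limit of 500 bp passed through a continuous run of sites. Between 500 and 550 bp lay 24 members, with a median pooled signal value of 120, and 19 first-intron summits lay between 450 and 500 bp on the excluded side, with a median of 121. Just inside were peaks in CG31612 (505 bp, 259), ph-p (509 bp, 902) and heph (509 bp, 123). Just outside were peaks in Ptip (500 bp, 71.7), Nedd4 (500 bp, 74.9) and wkd (492 bp, 118).

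Base composition at the summits was not used by the rule. The mean GC content from 50 bp before to 50 bp after the summit was 34.7% ± 8.53 (SD over 839 members), against 42.5% in windows of the same width centred 300 bp upstream and downstream. The summit was lower than its flanks in 629 members (75%). In bins of 10 bp the mean fell to 33.9% next to the summit from a baseline of 41.8%, and the dip was 150 bp wide midway between the baseline and the minimum. Sub-threshold peaks in the same class of introns showed no such dip, with 42.0% ± 8.85 (SD over 17513 peaks) at the summit and 41.1% in the flanks. The dip was present in the list of each replicate alone, with 34.6% against 42.4% without replicate 1 and 33.9% against 42.8% without replicate 2. The dip was shared with other classes: later-intron peaks had 34% against 42.9% and promoter peaks 34.9% against 43.5%. How the sequencing and peak calling respond to base composition was not tested.

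**Figure D4:**
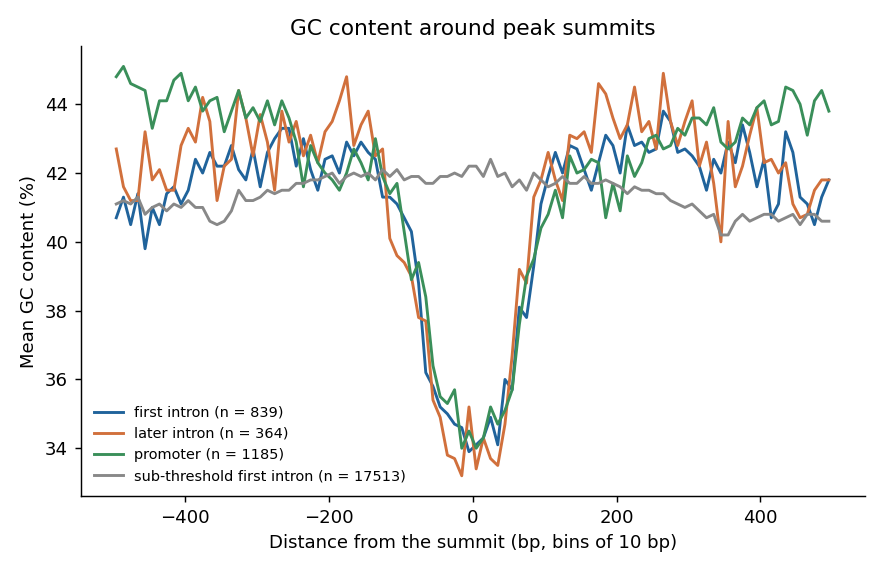
Mean GC content (%) in bins of 10 bp by distance from the summit (bp) for first-intron, later-intron and promoter peaks and for sub-threshold peaks in first introns. The 3 called classes fall together to about 34% at the summit, while the sub-threshold line stays near 42%; the vertical axis does not start at 0.

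A run of A and T of at least 10 bp was present at the summit of 435 members (51.8%), against 30.3% of flank windows. Later-intron peaks (53.8%) and promoter peaks (54.1%) had such runs about as often. Whether runs exceed what the lower GC content alone would give was not tested, and AAAAAAAA was no more frequent at member summits (8.94%) than in their flanks (9.06%). The 10 octamers that rose most from flank to summit in peaks outside first introns were all made of A and T alone. In the members, which took no part in that choice, all 10 were also more frequent at the summit than in the flanks. TATTTTAA was at 5.01% of member summits against 1.19% of flanks, and AAAATATT at 6.67% against 2.92%, on either strand. The list overlaps itself, since several octamers are shifted copies of others, and A/T-rich windows hold more of any such word.

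Windows chosen for other features are shown next, from the same genome copy, plus strand, 5′ to 3′. Capitals mark GATAA or its reverse complement TTATC, the core read by GATA transcription factors, in simj (chr3L:10678692-10678792) and GATAd (chr2L:10334961-10335061). HDAC4 (chrX:13277714-13277814) has no capitals and is shown because its GC content of 55.4% was the highest among the strongest of the 5 classes of members.
simj: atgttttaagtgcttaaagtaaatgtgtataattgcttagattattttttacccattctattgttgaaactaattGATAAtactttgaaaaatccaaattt
GATAd: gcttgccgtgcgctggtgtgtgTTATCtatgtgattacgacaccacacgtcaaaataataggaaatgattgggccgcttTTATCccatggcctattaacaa
HDAC4: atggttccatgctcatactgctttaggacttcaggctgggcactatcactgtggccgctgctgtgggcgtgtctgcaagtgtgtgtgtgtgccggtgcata
GATAd is itself a GATA factor, and its window held the word 2 times at a GC content of 44.6%. Its signal values were 258 and 296. HDAC4, a histone deacetylase, had a replicate mean of 213 ± 7.40 (SD, n = 2), so the peak was strong in both replicates. Its GC content at the pooled summit was above the 32.7% of its flanks, the reverse of the dip.

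Of 16 sequence words searched on both strands, none differed between first and later introns after adjustment, and 3 had an unadjusted Fisher's exact p under 0.05. GATAA was at 25.6% of member summits against 19.2% of later-intron summits (difference 6.4 points, 95% interval 1.2 to 11.2, Fisher's exact p = 0.0181, adjusted p = 0.107). Its share was 18.8% in the members' flanks and 18.4% at sub-threshold peaks in first introns. Promoter summits had it at 23.4%, against 19.1% in their flanks. In the strongest of the 5 classes of members it was 19.0%, against 25.6% to 30.4% in the other 4. ATCGAT, read by DREF and BEAF-32, was at 2.50% against 0.549% (adjusted Fisher's exact p = 0.107), and AAAAAAAA at 8.94% against 13.7% (adjusted Fisher's exact p = 0.107). The low ATCGAT share in later introns rests on 2 summits, and their flanks had it at 3.57%. Member flanks had ATCGAT at 1.91%, sub-threshold peaks in first introns at 2.52% and promoter summits at 4.56%. GAGAG, the word of the GAGA factor, was at 9.18% of member summits against 16.0% of flanks and 12.4% of sub-threshold peaks. It was also rarer at the summit in later introns (10.2% against 15.7% of flanks) and at promoters (11.3% against 15.4%). A match is a description of the letters and not evidence of binding by those factors.

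The members lay in 571 host genes, 9.68% of the 5896 protein-coding genes with eligible first-intron sequence. Genes with longer first introns were hosts more often, as a share per gene and not per base. Of genes with up to 1000 bp of eligible sequence 1.45% were hosts, and the shares were 11.5% (up to 5000 bp), 25.1% (up to 10000 bp) and 34.2% (up to 20000 bp) and 41.2% above that. The shortest class had 49 hosts in 0.809 Mb of eligible sequence and the longest had 114 in 10.2 Mb. Per Mb, hosts were therefore fewer in the longest class. Hosts had a median of 7934 bp of eligible first-intron sequence, against 590 bp over all genes that have any. A peak at one of the host's own promoters was present for 151 hosts (26.4%), beside 13.6% of all these genes. Genes with a peak in later introns but not in the first had nearly the same share, 44 of 181 (24.3%, difference 2.1 points, 95% interval -5.4 to 8.9, Fisher's exact adjusted p = 0.836). Hosts also had more annotated TSSs, with a mean of 2.48 against 1.69 for all genes with eligible sequence, and the part of this in the promoter share was not tested.

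**Figure D5:**
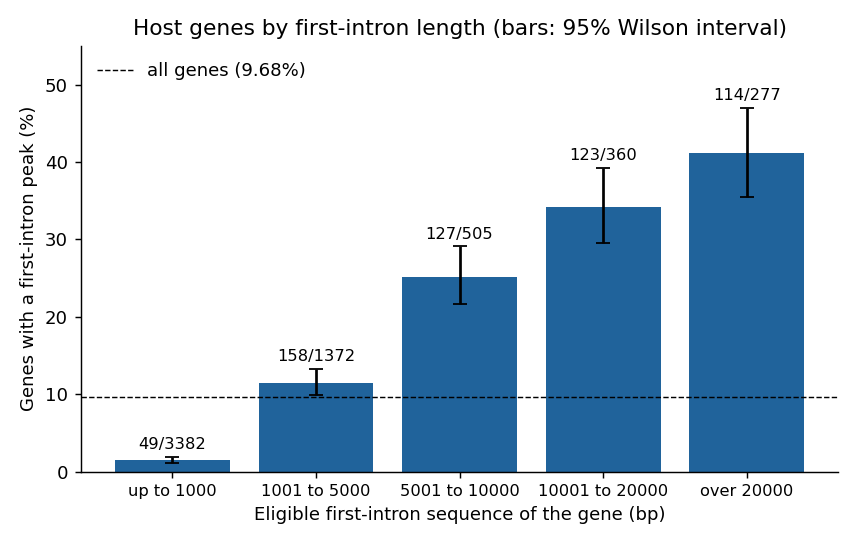
Percentage of protein-coding genes that hold a first-intron peak, by the amount of eligible first-intron sequence of the gene (bp), with 95% Wilson intervals and the number of hosts over genes above each bar. The share per gene climbs from 1.45% to 41.2%, without regard to the bases each class offers, and the dashed line marks 9.68% over all genes.

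Most hosts held 1 peak (407 genes), 100 held 2, and 64 held at least 3 (11.2%). Neighbouring members with the same host gene, which can have several first introns, were a median of 3019 bp apart. CHES-1-like, a forkhead transcription factor gene on the X, held 11, whose replicate 1 values ran from 32.7 to 190 and replicate 2 values from 35.9 to 248. Of these, 5 were in both thresholded lists and 2 in neither. Drak, a kinase related to death-associated protein kinases, held 9 with values from 30.7 to 171 and from 34.6 to 246 in the replicates, and sbb, a transcriptional corepressor gene also known as brakeless, held 9 with 7 in both lists.

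The other hosts with most peaks were simj, Tlk, CG43658 and RapGAP1 with 7 each and CG3764 with 6. At simj a second strong peak lay near the intron's start, with 301 and 298 in the replicates, and the weakest of its peaks had 33.5 and 33.9. Tlk, a kinase of chromatin assembly, had 6 of its 7 peaks in both lists and none in neither. RapGAP1, which switches off the small GTPase Rap1, had 4 of 7 in neither list, with a median pooled signal value of 74.2 against 115 over all members.

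Genes of EGF receptor and MAP kinase signalling, the pathway in which secreted ligands activate a receptor tyrosine kinase and the Ras cascade, had the highest share of hosts among 15 gene lists. Of the 21 list genes with eligible sequence 12 held a member (57.1%, 95% Wilson interval 36.5 to 75.5), beside 9.68% of all genes. These genes have long first introns, with a median of 4066 bp, and per length they held 146 peaks per Mb against 37.8 over all genes. No test was made of any list. The 12 covered ligands and their processing (spi, vn, S, rho, ru), the secreted inhibitor aos, the adaptor drk, the inhibitors sty and RasGAP1, the nuclear ETS proteins aop and pnt, and edl, a regulator of them. S led with the values given above and had 5 peaks. aos followed with 151 and 110 in the replicates (131 ± 28.8, n = 2), and edl with 122 and 128 (125 ± 4.83, n = 2). The spi peak was near the lower end of the members, with a pooled signal value of 62.2, and had no value in replicate 1.

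TGF-beta and JAK/STAT signalling, which pattern the embryo through secreted ligands, their receptors and transcription factors, had 8 of 17 list genes as hosts (47.1%, 26.2 to 69.0) at 111 peaks per Mb. The nuclear factor shn had the strongest peak, with 220 and 201 (210 ± 13.1, n = 2). The type I receptor gene tkv followed with 113 and 89.4 and had 3 peaks. Stat92E had 89.8 and 42.9, so the replicates differed 2-fold there. By pooled signal value the remaining hosts came after these: the receptor gene wit, the antagonist sog, the transducer Mad, the ligand dpp and the feedback inhibitor Socs36E.

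In Wnt and Hedgehog signalling 8 of 26 list genes were hosts (30.8%) at 40.1 peaks per Mb. The receptor gene fz had 83.0 and 76.3 in the replicates, the glypican gene dlp 56.0 and 76.5, and sgg, the fly glycogen synthase kinase, 41.4 and 67.3. In Notch signalling 2 of 14 were hosts (14.3%) at 49.9 peaks per Mb, beside 9.68% and 37.8 per Mb over all genes. They were neur with the values above and the receptor N with 57.9 and 71.6. Apart from neur, the peaks named for these 2 lists were below the strongest of the 5 classes of members. The symbol Dl, for the gene that the annotation names Delta, matched no gene, so Delta was not counted.

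Among genes of the body plan, the Hox and homeotic list held 4 members and the segmentation list 2. Over all genes the share of hosts was 9.68%. Of 11 Hox and homeotic genes 3 were hosts (27.3%), at 18.9 peaks per Mb. Antp had 111 and 102, while lab (39.5 and 31.1) and Abd-B (33.1 and 32.3) were in neither of the thresholded lists. Of 15 segmentation genes 2 were hosts (13.3%, 95% Wilson interval 3.74 to 37.9), cad with 34.3 and 38.8 and inv with 33.0 and 33.3. Their list had 32.3 peaks per Mb and a median of 916 bp of eligible sequence. Of all genes with up to 1000 bp 1.45% were hosts. Among other embryonic transcription factors 11 of 42 were hosts (26.2%), at 36.2 peaks per Mb and a median of 5942 bp, near the 25.1% of all genes with 5000 to 10000 bp and the 37.8 per Mb of all genes. They were led by GATAd, shn and ush, a partner of GATA factors with 94.7 and 69.1 at the highest of its 5 peaks.

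Genes of cell architecture and RNA binding held some of the strongest members. Of 31 cytoskeleton and polarity genes 11 were hosts (35.5%) at 66.6 peaks per Mb, beside 9.68% and 37.8 per Mb over all genes. They were led by pyd, the polarity regulator l(2)gl (215 and 204) and the cofilin gene tsr (113 in both replicates). Of 27 RNA-binding and splicing genes 9 were hosts (33.3%), with shep first, then Rbfox1 (218 and 203) and brat, a translational repressor (205 and 183). Their first introns are long, with a median of 16043 bp of eligible sequence, and the density was 24.1 per Mb. Over all genes with 10000 to 20000 bp the share was 34.2%, near that of this list. Of 38 axon guidance and adhesion genes 10 were hosts (26.3%), at 32.0 peaks per Mb and a median of 6747 bp of eligible sequence. Over all genes with 5000 to 10000 bp the share was 25.1% and the density over all genes was 37.8 per Mb. The list was led by fra, the semaphorin receptor PlexA (71.0 and 95.6) and the phosphatase Ptp10D (75.3 and 77.3).

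The remaining lists had shares of hosts from 11.1% to 38.1%, beside 9.68% and 37.8 peaks per Mb over all genes. Ecdysone response genes and nuclear receptors had 8 of 21 hosts (38.1%) at 44.2 per Mb, led by Hr3 (165 and 210), Eip63E (111 and 130) and Hr4 (110 and 104). Chromatin regulators had 5 of 20 (25%) at 54.0 per Mb, led by ph-p, jing (179 and 203) and Mi-2, the NuRD ATPase (94.9 and 90.3). Growth and insulin genes had 3 of 18 (16.7%) at 44.7 per Mb. They were the insulin receptor InR (145 and 177), Mnt (62.6 and 36.7) and S6k (34 and 40.9). Ion channel and synapse genes had 4 of 32 (12.5%) at 24.0 per Mb, led by the cAMP phosphodiesterase dnc (259 and 285), dlg1 (74.5 and 111) and Irk1 (75.6 and 111). Cell cycle genes had 2 of 18 (11.1%), chif and E2f1 (190 and 200). Their first introns were short, with a median of 360 bp, so that 3 peaks gave a density of 78.6 per Mb.

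By chromosome, the X held 199 members (23.7%) against 19.2% of sub-threshold first-intron peaks, at 43.8 per Mb (95% Poisson interval 38.0 to 50.4). Arm 2R had the lowest density of the large arms, 31.4 per Mb (26.1 to 37.4), and the others lay between 35.3 and 40.4. Chromosome 4 held 3 members and the Y none.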

How the data were processed

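Peak lists of the 2 replicates and of both together were deposited by the authors on dm6; per the deposited descriptions they were made from alignments of the samples and a control and ranked by the irreproducible discovery rate. The aligner, peak caller and read depth are not given in the sources used, so depth is unknown. The authors deposited a score and a signal value per peak; the score was used to find ranked peaks that did not pass. Where conservative peaks overlapped, the one of highest signal was kept (3143 to 2897). Genes came from Ensembl release 115 and bases from RefSeq, the same assembly; transposon genes were left out, leaving 23694 TSSs. A replicate value is the highest-signal peak of its ranked list holding the pooled summit. A host is the protein-coding gene whose first intron holds the summit, the shortest first. The main Fisher's tests (scipy 1.17.1, Python 3.11.15) formed 1 family of 20 with Benjamini-Hochberg adjustment (0.05), and were tested on simulated data. The 5 Fisher's tests by distance to the TSS, added after the data were seen, were adjusted as a separate family. Intervals cover counting error only. Genes named were the hosts of the 15 strongest members, the 8 hosts with most members and up to 3 hosts per gene list, with all hosts of the EGF receptor list and of the TGF-beta list added after their values were seen. The list symbols included 9 that matched no gene symbol of the annotation. Among them were Dl, nos and Tor, so the genes it names Delta, nanos and mTor were not counted. Members and lists were chosen with earlier results of these data known. Alternatives covered the TSS distance, list, merging, intron definition, strength, overlap, window and each replicate left out. The stricter intron definition was not applied to the comparison of called with sub-threshold peaks, nor to that of promoter peaks between hosts. Members also in a later intron of their host therefore counted as first-intron peaks there.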

Additional observations from a re-analysis of the deposited data

How the results depend on the processing

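No main result reversed, and no test changed its side of the threshold, in the settings run. Small differences between first and later introns in single words did change sign in some settings, and none of them passed. CTTTGA, for example, went from -0.359 to 1.18 points with a window of 25 bp to either side. Of 131 comparisons with the values reported, 7 moved by more than the spread, or for counts by over 1.5 times. The number of members was 628 without replicate 1 and 584 without replicate 2, and ran from 637 to 994 with other TSS distances, the optimal list or all peaks kept. It was 494 when the intron had to be the first in every coding transcript that holds it and 467 with the stronger 50% of peaks. The share in both replicates was 43.3% with 50% reciprocal overlap, 88.7% with the stronger 50% of peaks and 99.8% with the replicates' ranked lists, which are long. The median signal value of the same 839 members was 61.1 in replicate 2 alone (without replicate 1) and 57.3 in replicate 1 alone (without replicate 2). With members chosen anew from each replicate's own list it was 76.4 and 72.6. Replicate values are on another scale than the pooled ones. Summit minus flank GC content ran from -8.9 to -5.9 percentage points over the settings, all added after the data were seen. Of the ranked peaks, 84 passed the score but were absent from the thresholded list, 23 of them in first introns; they were left out. No paired analysis was possible because there is 1 group. Unknown read depth limits how many weak sites could be called.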
